A study of Mus musculus with 6 samples.

Results

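The mouse Schlafen genes Slfn1, Slfn2, Slfn3 and Slfn4 were followed through every probe set whose platform gene symbol names them. The family itself was chosen with earlier results of these data known. They are 4 of 12393 genes measured and were read by 5 probe sets. Each gene had 1 probe set of its own, and 1 further probe set carried the symbols of both Slfn4 and Slfn3. In cells separated as regulatory T cells, Slfn4 rose in mice with Dnmt1 deleted by a Foxp3 Cre, while Slfn1, Slfn2 and Slfn3 did not pass the test.

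Schlafen genes form a vertebrate family, named after the German word for sleeping because forced expression of Slfn1 in mouse cells halts their growth. Slfn1 and Slfn2 encode short proteins, Slfn3 and Slfn4 longer ones, and a further group in the same cluster encodes proteins with a helicase-like domain. In mice, loss of Slfn2 function leaves T cells unable to hold quiescence, the resting state in which a lymphocyte waits for antigen. Slfn4 is known mainly from mouse macrophages and other myeloid cells, where type I interferon and bacterial products induce it.

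The knockout group (3 arrays) came from C57BL6 mice with genotype fl-DNMT1/Foxp3cre, in which Cre recombinase expressed under Foxp3 removes a floxed Dnmt1, the maintenance DNA methyltransferase gene. The control arrays (3) hold RNA of wild type C57BL6 mice for which no Cre or floxed allele is labelled, so the deletion, the Cre and the floxed allele cannot be told apart as sources of a difference. RNA was taken from CD4+CD25+ cells separated with magnets, and deletion is limited to cells that express Foxp3. The labels give neither the age of the mice nor whether each sample came from its own animal, so the spread behind each p-value may be technical. Levels are in log2 RMA units, a scale on which 1 unit is a doubling and low transcripts are compressed. Array medians were 5.71 to 5.77 in the knockout and 5.69 to 5.72 in wild type, and with 3 arrays a group the precision is limited.

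Markers of the labelled cells were present in both groups. The mean level of 13 core T cell genes was 10.55 to 10.88 on the knockout arrays and 10.79 to 10.88 on the wild type arrays. Differences were negative in 12 of these 13, with a median of -0.13. Of 19 measured regulatory T cell markers, 4 were lower in the knockout and 15 did not pass, where 0.573% of all genes were called lower. Those 4 were Cd83, the semaphorin receptor gene Nrp1, Ikzf2, encoding Helios, and the interleukin-2 receptor gene Il2ra. Differences were negative in 15 of the 19, with a median of -0.42. An unadjusted p under 0.05 was found for 13, among them Itgae and Socs2, which were higher, against 2222 of 12393 genes. The targeted gene, Dnmt1, had levels of 8.67, 8.89 and 9.34 in the knockout and 9.56, 9.43 and 9.50 in wild type. It differed by -0.53 (SE 0.16), which did not pass (limma adjusted p = 0.152). The position of its probe set relative to the deleted part is not stated, and a probe set outside that part would not read the deletion directly. Foxp3 differed by -0.66 (SE 0.19, limma adjusted p = 0.142). Dnmt1 passed without knockout replicate 3 (-0.72, limma adjusted p = 0.0433) and Foxp3 without knockout replicate 1 (-0.87, adjusted p = 0.0187).

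Slfn4 (probe set 1427102_at) had levels of 8.64, 10.47 and 9.34 on knockout arrays 1, 2 and 3, and 6.18, 5.95 and 4.73 on wild type arrays 1, 2 and 3. Every knockout array lay above every wild type array, as for 11.0% of all genes, and the spread within each group was wide. The means were 9.48 ± 0.92 in the knockout and 5.62 ± 0.78 in wild type (SD, n = 3 each). The difference was 3.87 on the log2 scale (SE 0.52, 95% limma interval 2.66 to 5.07, adjusted p = 0.0212), which is 14.6-fold, with an interval from 6.34-fold to 33.6-fold. Slfn4 ranked 8 among all genes by the size of its rise. It was the 1 member of 4 called, where 1.90% of all genes were called, with 1.33% of all genes higher and 0.573% lower. Its probe set was as bright as or brighter than 91.5% of all probe sets by the knockout mean and 49.1% by the wild type mean. In bulk RNA of this kind a larger share of Slfn4-expressing cells and more Slfn4 RNA per cell cannot be told apart.

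The call on Slfn4 was lost without wild type replicate 1 (difference 4.15, limma adjusted p = 0.0824), wild type replicate 2 (4.03, adjusted p = 0.0861), wild type replicate 3 (3.42, adjusted p = 0.0818) or knockout replicate 3 (3.94, adjusted p = 0.0530), and with a trended, robust variance (3.87, adjusted p = 0.0589). When each array's mean over the neutrophil markers entered the fit as a covariate, which largely follows the groups, the difference was 1.58 (SE 0.71, limma adjusted p = 0.489).

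**Figure D1:**
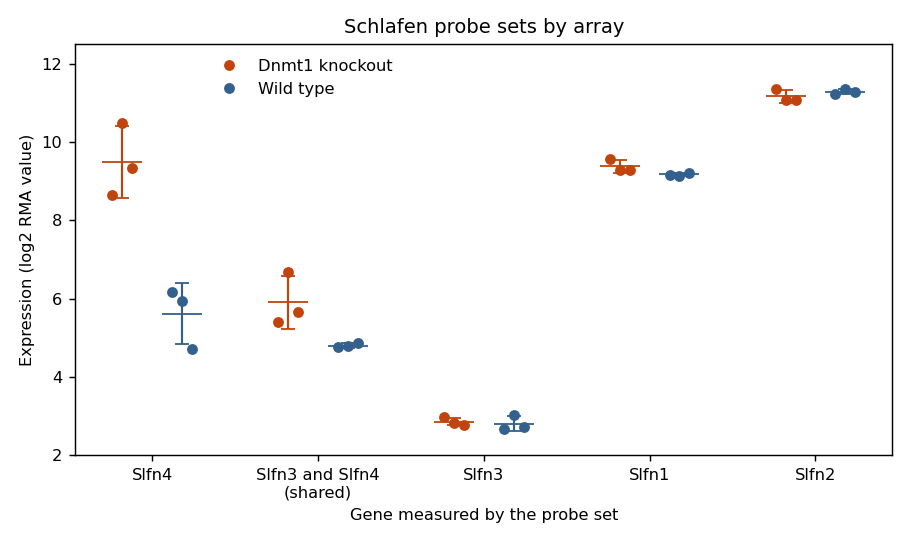
Expression (log2 RMA value, vertical axis) of the 5 Schlafen probe sets on 3 knockout and 3 wild type arrays, with points for arrays, horizontal bars for means and whiskers for SD. Slfn4 lies at 8.64 to 10.47 in the knockout and 4.73 to 6.18 in wild type, while Slfn3, Slfn1 and Slfn2 lie at similar levels in both groups.

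The probe set shared by Slfn3 and Slfn4 (1450322_s_at) had levels of 5.40, 6.68 and 5.65 in the knockout and 4.76, 4.78 and 4.87 in wild type. Again the groups did not overlap, and the knockout arrays followed each other in the order seen for Slfn4, with replicate 2 highest and replicate 1 lowest. The difference was 1.11 (SE 0.29, 95% limma interval 0.43 to 1.78, adjusted p = 0.121 over 22626 probe sets), which did not pass. Of all probe sets, 23.4% had groups that do not overlap, and 9.79% of all probe sets had the knockout higher without overlap. The share called was 1.68%, with 1.19% of all probe sets called as higher. Since its annotation names both genes, this probe set cannot assign its signal to Slfn3 or Slfn4. Without knockout replicate 2 the difference was 0.72 (limma adjusted p = 0.0321), and with the neutrophil covariate it was -0.42 (adjusted p = 0.581).

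Slfn3 (1421644_at), whose rat counterpart is known from the differentiation of intestinal epithelium, was near the floor of the scale on all arrays. It had levels of 2.97, 2.84 and 2.78 in the knockout and 2.67, 3.04 and 2.73 in wild type. The groups overlapped, and its mean level was as high as or above that of only 7.04% of probe sets. The difference was 0.05 (SE 0.11, 95% limma interval -0.22 to 0.32, adjusted p = 0.858). At such levels RMA values hold little information on a change.

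Slfn1 (1418612_at), the growth-arrest gene that gave the family its name, had levels of 9.57, 9.27 and 9.29 in the knockout and 9.16, 9.14 and 9.22 in wild type. All knockout values lay above the wild type values by a narrow margin, as was so for 11.0% of all genes, and 25.0% of genes had groups apart in either direction. The means were 9.38 ± 0.17 in the knockout and 9.17 ± 0.04 in wild type (SD, n = 3 each). The difference of 0.21 (SE 0.10, 95% limma interval -0.02 to 0.44, adjusted p = 0.324) did not pass, and the interval holds no change as well as a rise of up to 1.36-fold. With the neutrophil covariate it was 0.51 (SE 0.19, limma adjusted p = 0.428).

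Slfn2 (1450165_at), required for T cell quiescence in mice, was the brightest of the 5 probe sets, above 97.9% of probe sets or equal to them. Its levels were 11.36, 11.07 and 11.06 in the knockout and 11.21, 11.34 and 11.29 in wild type. The groups overlapped, since knockout replicate 1 was the highest of the 6 arrays and the other knockout arrays were the lowest. The means were 11.17 ± 0.17 in the knockout and 11.28 ± 0.07 in wild type (SD, n = 3 each). The difference was -0.11 (SE 0.10, 95% limma interval -0.35 to 0.12, adjusted p = 0.605). Among the knockout arrays the core T cell list mean was highest on replicate 1 (10.88) and lower on replicates 2 and 3 (10.60 and 10.55). Over all 6 arrays it was highest on wild type replicate 3 (10.88), by a narrow margin. Of its 13 genes, 11 had their highest knockout value on replicate 1, against 36.4% of all genes. What part the share of T cells had in the Slfn2 values was not tested.

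The difference of Slfn4 was set against that of each other member within the same arrays. The change of Slfn4 exceeded that of Slfn1 by 3.66, that of Slfn2 by 3.98 and that of Slfn3 by 3.82 on the log2 scale. Since Slfn3 was at the floor, the last value restates the change of Slfn4 and says little of Slfn3. In each of these 3 contrasts the exact two-sided permutation test gave p = 0.1, also after Benjamini-Hochberg adjustment, which is the smallest p that this test allows with 3 arrays against 3, so it cannot reach 0.05. The 3 contrasts share the Slfn4 values and are not independent. With any 1 array left out, the excess lay between 3.11 and 4.18 against Slfn1, between 3.44 and 4.50 against Slfn2 and between 3.31 and 4.29 against Slfn3. The upper limma bounds for Slfn1 (0.44) and Slfn2 (0.12) lay below the lower bound for Slfn4 (2.66).

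In the RefSeq order of mouse chromosome 11, the 4 genes stand side by side as Slfn2, Slfn1, Slfn4 and Slfn3, inside a cluster that runs from Slfn5 to Slfn14. Slfn8, a member of the group with a helicase-like domain and the other Schlafen gene measured here by a probe set of its own, had levels of 9.22, 9.23 and 9.28 in the knockout and 9.32, 9.25 and 9.10 in wild type. Its difference was 0.02 (SE 0.08, 95% limma interval -0.18 to 0.21, adjusted p = 0.932), with a sign that turned under median centring (-0.0083). Slfn5, Slfn9, Slfn10-ps and Slfn14 were not analysed here. The measured genes next to the cluster were taken in order after the Slfn values were known, 5 on each side. None of these 10 passed the limma test (0 of 10), and their differences ran from -0.31 for Rffl to 0.73 for the chemokine gene Ccl6. At an unadjusted p under 0.05 there were 3 of the 10, with Lig3 and Rffl lower and the chemokine gene Ccl5 higher (0.58, SE 0.16, limma adjusted p = 0.130). Such a p was found for 2222 of all 12393 genes. The measured genes directly beside Slfn4 were Slfn1, with a difference of 0.21, and Slfn3, with 0.05.

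**Figure D2:**
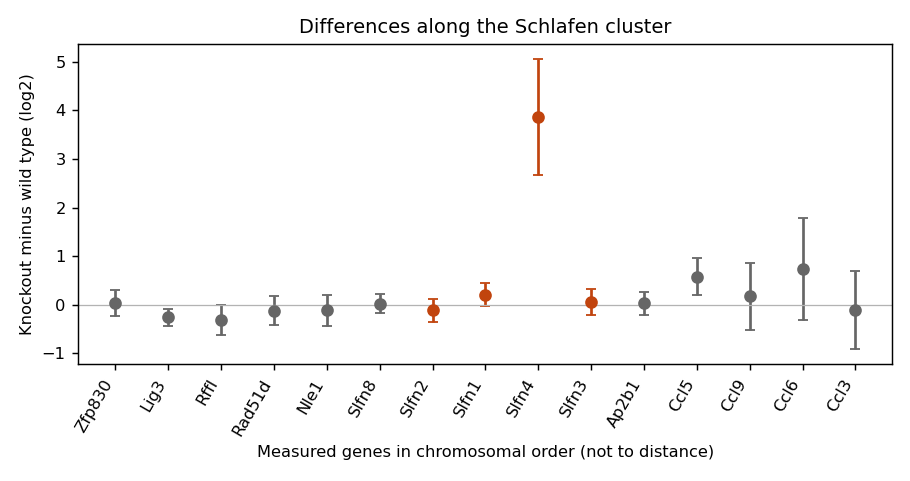
Difference between knockout and wild type (log2, vertical axis) for the measured genes of the Schlafen cluster and the 5 nearest measured genes on each side, in chromosomal order and not to distance, with 95% limma intervals as bars and Slfn1 to Slfn4 in colour. Slfn4 lies at 3.87 and the other genes lie between -0.31 and 0.73.

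The promoters of the 4 genes are shown because the genes lie next to each other, yet the data give a large difference for 1 of them. All 4 were matched in RefSeq (build GRCm38.p6), each as 250 bases before and 50 after the annotated start. Capitals mark ACTTCCTGG, the longest run of letters found in all 4 windows on the sense strand, a search made after the expression values were known.
Slfn4, chr11:83174936-83175235, + strand: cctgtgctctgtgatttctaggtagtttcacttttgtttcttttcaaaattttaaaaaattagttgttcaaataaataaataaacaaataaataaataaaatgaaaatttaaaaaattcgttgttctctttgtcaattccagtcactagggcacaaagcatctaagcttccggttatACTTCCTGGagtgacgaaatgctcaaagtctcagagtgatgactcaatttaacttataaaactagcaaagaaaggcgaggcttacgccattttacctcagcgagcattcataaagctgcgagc
Slfn3, chr11:83191080-83191379, + strand: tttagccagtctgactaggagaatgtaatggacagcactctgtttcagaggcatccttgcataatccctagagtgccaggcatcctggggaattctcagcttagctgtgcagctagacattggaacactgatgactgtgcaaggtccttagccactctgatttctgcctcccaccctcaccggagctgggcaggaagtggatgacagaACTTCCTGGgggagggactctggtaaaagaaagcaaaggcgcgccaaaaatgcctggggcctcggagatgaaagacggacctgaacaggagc
Slfn1, chr11:83116570-83116869, + strand: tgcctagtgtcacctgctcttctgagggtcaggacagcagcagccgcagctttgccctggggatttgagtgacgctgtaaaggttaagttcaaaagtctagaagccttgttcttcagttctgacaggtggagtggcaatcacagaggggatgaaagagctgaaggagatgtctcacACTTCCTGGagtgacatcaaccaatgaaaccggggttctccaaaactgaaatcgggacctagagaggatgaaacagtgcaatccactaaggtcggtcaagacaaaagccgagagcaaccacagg
Slfn2, chr11:83064862-83065161, + strand: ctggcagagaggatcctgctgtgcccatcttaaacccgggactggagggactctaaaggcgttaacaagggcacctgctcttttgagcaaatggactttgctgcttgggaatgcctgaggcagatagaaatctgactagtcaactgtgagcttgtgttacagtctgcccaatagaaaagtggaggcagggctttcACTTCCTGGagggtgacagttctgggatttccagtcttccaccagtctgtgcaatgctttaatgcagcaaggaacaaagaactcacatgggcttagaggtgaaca

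The shared run began 73 bases before the start in Slfn4, 42 in Slfn3, 74 in Slfn1 and 55 in Slfn2. On either strand it was present in 277 of 32851 promoter windows of the same length (0.843%), and in none of the windows of Slfn5, Slfn8, Slfn9 and Slfn14. Slfn4 and Slfn1 shared a longer stretch around it of 15 bases, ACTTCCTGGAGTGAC. The interferon-stimulated response element core GAAANNGAAA, searched on both strands, was in 3.44% of all windows and in none of these 4, while the windows of Slfn5, Slfn8 and Slfn9 held it. The gamma-activated site TTCNNNGAA, which reads the same on both strands, was in 8.30% of all windows and in none of these 4. A match is a description of letters, and its lack concerns only these windows. CpG dinucleotides, the sites whose methylation Dnmt1 maintains, numbered 7 in the Slfn4 window, 5 in Slfn3, 6 in Slfn1 and 2 in Slfn2, with a median of 7 over all windows. The Slfn4 window was the richest in A and T, with 33.7% G and C, a share as low in only 2.86% of windows, against 53.0% in Slfn3, 50.3% in Slfn1 and 49.7% in Slfn2. Methylation was not measured.

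Genes with a profile like that of Slfn4 were found by the root mean square distance between log2 values over the 6 arrays, each gene centred on its wild type mean. The nearest 5 genes were S100a9 (distance 0.27), Wfdc21 (0.39), Cd177 (0.42), S100a8 (0.43) and Chil3 (0.60). All but Wfdc21 are also on the neutrophil marker list. S100a8 and S100a9 encode the subunits of calprotectin, Cd177 a neutrophil surface protein and Chil3 a chitinase-like protein of myeloid cells. S100a9 had levels of 12.03, 14.17 and 12.72 in the knockout and 9.26, 9.47 and 8.67 in wild type, a difference of 3.84 (SE 0.50, limma adjusted p = 0.0207). Knockout replicate 2 was the highest and wild type replicate 3 the lowest array for S100a9, as for Slfn4. The other members were far from Slfn4, at distances of 2.70 for Slfn1, 2.79 for Slfn3 and 2.92 for Slfn2, with 1895, 4362 and 9487 genes closer. Likeness over 6 arrays in 2 groups mostly reflects the group difference and the order of the knockout arrays.

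**Figure D3:**
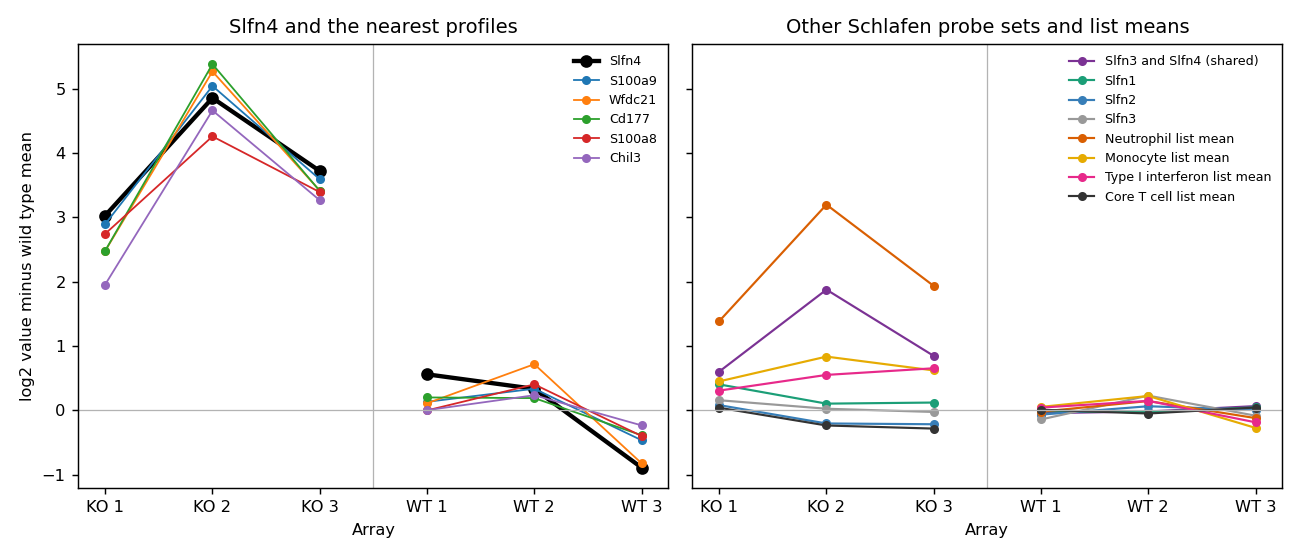
Log2 value minus the wild type mean (vertical axis) on knockout (KO) and wild type (WT) arrays 1 to 3, for Slfn4 with its 5 nearest genes (left) and for the other Schlafen probe sets with the means of 4 gene lists (right). Slfn4, its nearest genes, the shared probe set and the neutrophil and monocyte list means all peak on knockout replicate 2. Slfn1, Slfn2 and Slfn3 do not.

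Markers of neutrophils moved with Slfn4, which is not on that list. Of 25 measured neutrophil markers, 11 were higher, 0 lower and 14 did not pass, with a median difference of 1.71 against -0.014 over all genes. The list mean was 7.16 to 8.97 on the knockout arrays and 5.65 to 5.92 on the wild type arrays, without overlap. Examples are the antimicrobial granule genes Ltf, with 10.74 ± 1.35 in the knockout and 6.14 ± 0.43 in wild type (SD, n = 3 each), and Ngp, with 12.21 ± 1.24 and 7.70 ± 0.52. On the knockout arrays, 22 of the 25 markers had the array order of Slfn4, against 18.9% of all genes. On the wild type arrays the list mean was lowest on replicate 3 (5.65), where Slfn4 was also lowest. The monocyte and interferon target list means, given below, were lowest on that array too (4.95 and 7.51). The highest wild type array was replicate 2 for the neutrophil list mean (5.92) and replicate 1 for Slfn4 (6.18). The part of neutrophil RNA in the Slfn4 difference was not tested beyond the covariate fit above.

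Of 28 monocyte and macrophage markers, 2 were higher and 26 did not pass, with a median difference of 0.51. Differences were positive in 26 and negative in 2, where 46.3% of all genes had a positive difference. The list mean was 5.67 to 6.06 on the knockout arrays and 4.95 to 5.44 on the wild type arrays. The iron exporter gene Slc40a1 had 6.90 ± 0.12 in the knockout and 4.99 ± 0.59 in wild type, and the lipopolysaccharide receptor gene Cd14 had 4.86 ± 0.41 and 3.57 ± 0.09 (SD, n = 3 each). Of the 28, 16 had the knockout array order of Slfn4. So did 8 of 13 B cell markers, whose median difference was -0.23, and 7 of 11 markers of CD8 and natural killer cells. With the monocyte and macrophage list mean as a covariate, a term chosen after the data were seen, the Slfn4 difference was 1.66 (SE 0.46, limma adjusted p = 0.694). That mean did not overlap between the groups, so the fit cannot cleanly separate list from group. Among 11 markers of CD8 and natural killer cells the receptor gene Ncr1 was higher (8.01 ± 0.85 in the knockout and 5.51 ± 0.07 in wild type, SD, n = 3 each) and 10 did not pass. None of 9 dendritic, 13 B cell, 7 erythroid or 13 core T cell markers passed the limma test (0 in each list), where 1.90% of all genes were called. An unadjusted p under 0.05 was found for 2222 of 12393 genes in all. It was found for 14 monocyte and macrophage, 7 CD8 and natural killer, 2 dendritic, 0 B cell, 2 erythroid and 2 core T cell markers. Of the 7, Cd8b1 and Gzma were lower and the rest higher. The erythroid genes were the anion exchanger gene Slc4a1, with a difference of 1.16 (SE 0.30, limma adjusted p = 0.110), and the heme synthesis gene Alas2, with 1.52 (SE 0.46, adjusted p = 0.151), and both were highest on knockout replicate 3.

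Since type I interferon induces Schlafen genes, its ligands, receptors, signalling proteins and targets were set beside them. Of 17 measured ligand, receptor and signalling genes, 0 passed the limma test. In this list 5 had an unadjusted p under 0.05, against 2222 of 12393 genes in all. The nearest were Irf7, which encodes an interferon regulatory factor, with a difference of 0.46 (SE 0.09, limma adjusted p = 0.0642), and the interferon gamma receptor gene Ifngr2, with -0.39 (SE 0.10, adjusted p = 0.0987). Without knockout replicate 1 both passed (limma adjusted p = 0.0337 for Irf7 and 0.0370 for Ifngr2), and Irf7 also passed with the filter on dim genes (0.0460), trend and robust variance (0.0372) and array weights (0.0410). Of 31 measured targets, 6 were higher and 25 did not pass, with a median difference of 0.45. An unadjusted p under 0.05 was found for 22 of the 31. Differences were positive in 26 and negative in 5, where 46.3% of all genes had a positive difference. The exonuclease gene Isg20 had 9.26 ± 0.04 in the knockout and 8.58 ± 0.10 in wild type, and the deconjugating protease gene Usp18 had 9.38 ± 0.21 and 8.60 ± 0.16 (SD, n = 3 each). Lgals3bp and Parp12 rose by 0.71 and 0.54, and all 4 of these differences were smaller than that of Slfn4. The targets Ifitm3 (1.33), Ifit3 (1.16), Mx1 (1.16) and Oasl2 (1.15) had larger differences that did not pass. The list mean was 8.0, 8.25 and 8.35 on knockout arrays 1, 2 and 3, and 7.74, 7.84 and 7.51 on wild type arrays 1, 2 and 3. It was highest on knockout replicate 3. Of the 31 targets, 6 had the array order of Slfn4, a share near the 18.9% of all genes. With the target list mean as a covariate, also chosen after the data were seen, the Slfn4 difference was 2.10 (SE 0.78, limma adjusted p = 0.766). The target list mean too did not overlap between the groups, so this fit has the same limit.

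Genes of T cell quiescence were set beside Slfn1 and Slfn2. Of 25 measured, 0 were higher, 2 lower and 23 did not pass, with a median difference of -0.098. Differences were negative in 16 and positive in 9, where 46.3% of all genes had a positive difference. The genes that fell were Bach2, a repressor of effector differentiation, and Tsc1, a brake on the mTOR growth pathway. Bach2 had levels of 8.83, 8.61 and 8.58 in the knockout and 9.15, 9.31 and 9.23 in wild type, a difference of -0.55 (SE 0.09, limma adjusted p = 0.0381). Tsc1 had 7.07, 7.04 and 6.96 in the knockout and 7.46, 7.39 and 7.39 in wild type, a difference of -0.39 (SE 0.07, limma adjusted p = 0.0481). For both genes the groups did not overlap, unlike for Slfn2, and 25.0% of all genes had groups apart in either direction. Both calls were lost when any 1 of wild type replicates 1, 2 and 3 and knockout replicates 2 and 3 was left out, with limma adjusted p of up to 0.167 for Bach2 and 0.187 for Tsc1. Both were also lost with the replicate block (adjusted p = 0.0942 for Bach2 and 0.109 for Tsc1) and with the neutrophil covariate (-0.36 for Bach2 and -0.39 for Tsc1). The Tsc1 call was lost further under quantile normalisation (limma adjusted p = 0.0555), cyclic loess (0.0690) and the mean of its probe sets (-0.26, adjusted p = 0.144).

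The cell cycle was read because Slfn1 halts it when overexpressed. Of 19 cyclin, kinase and inhibitor genes, 1 was higher and 18 did not pass, with a median difference of 0.22. It was the inhibitor gene Cdkn2d, with 9.58 ± 0.14 in the knockout and 9.02 ± 0.03 in wild type (SD, n = 3 each, limma adjusted p = 0.0330). Differences were positive in 14 of the 19 and negative in 5, and 6 had an unadjusted p under 0.05. Cdkn2a (0.98), Cdkn1a (0.77), Cdkn2b (0.65) and Cdk6 (0.59) had larger differences than Cdkn2d (0.55) that did not pass. Of 23 proliferation genes, 0 passed the limma test and 0 had an unadjusted p under 0.05, against 2222 of 12393 genes in all. The one with the lowest p was the replication clamp gene Pcna (difference 0.18, SE 0.10, limma adjusted p = 0.384). Their list mean was 8.08, 7.96 and 8.76 on knockout arrays 1, 2 and 3 and 7.99 to 8.23 on the wild type arrays, so that knockout replicate 3 stood above the other arrays.

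**Figure D4:**
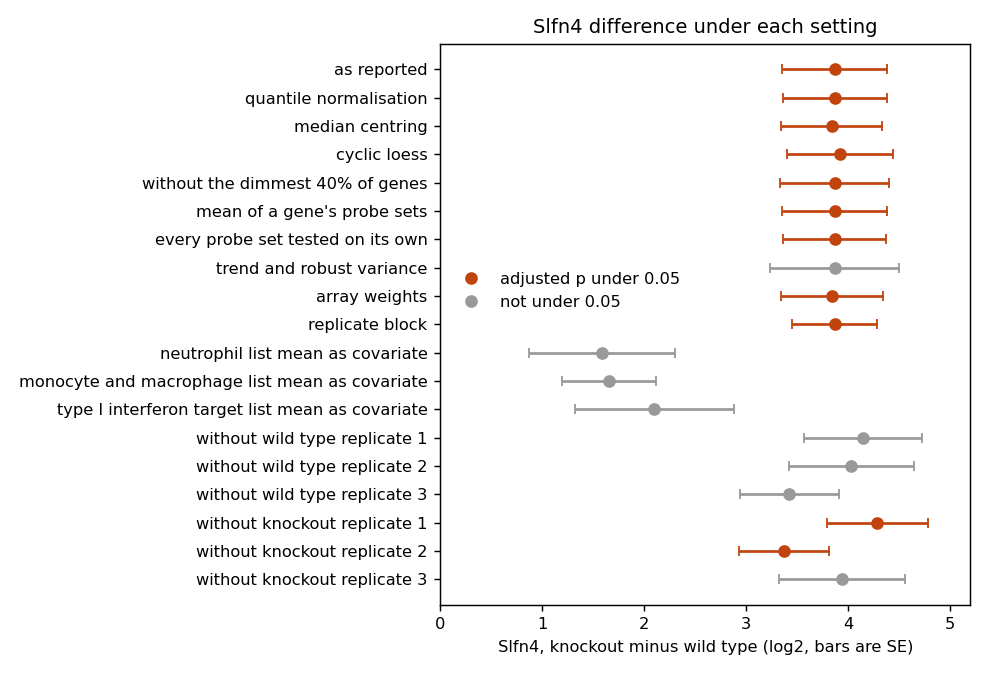
Slfn4 difference between knockout and wild type (log2, horizontal axis, bars are SE) as reported and under each alternative setting, coloured where the adjusted p is under 0.05. Differences lie between 3.37 and 4.29 except with a list mean as covariate, where they are 1.58, 1.66 and 2.10.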

How the data were processed

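The authors deposited log2 values for each probe set, for which the submitters' processing notes name RMA. No version or setting of it is given in the sources used. RMA subtracts background, normalises between arrays and summarises probes, so total RNA per cell is not measured. The table holds 22690 probe sets, of which 64 are controls, 20380 carry 1 gene symbol in the platform annotation, 691 several and 1555 none, and 20351 were found in RefSeq by gene ID (GRCm38.p6). The brightest probe set by the mean stood for each gene, and the shared Slfn probe set was read from a fit over all 22626 non-control probe sets. Groups follow the sample titles. Differences are knockout minus wild type, tested two-sided with limma 3.58.1 in R 4.3.3, adjusted by Benjamini-Hochberg over all genes or probe sets and called under 0.05, with no filter.

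The members and the 14 gene lists were chosen with earlier results of these data known. Named genes are the members, up to 4 called genes per list with the lowest p (where fewer than 2 passed, the 2 with the lowest p), the 5 nearest profiles, Dnmt1 and Foxp3. The genes beside the cluster and the promoter features were added later. The limma fit was tested on simulated data. Figures used matplotlib 3.10.9 in Python 3.11.15.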

Additional observations from a re-analysis of the deposited data

How the results depend on the processing

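Under quantile normalisation, median centring, cyclic loess, the filter on dim genes, the mean of a gene's probe sets, separate probe sets and array weights, Slfn4 remained called and Slfn1, Slfn2 and Slfn3 uncalled, although Slfn3 could not be tested once the dimmest 40% of genes were left out. The Slfn4 call was lost with trend and robust variance (3.87, limma adjusted p = 0.0589) and with the neutrophil (1.58), monocyte (1.66) or interferon target (2.10) list mean as a covariate, of which the last pair was added after seeing the data. Leaving out 1 array gave Slfn4 differences of 3.37 to 4.29, Slfn1 of 0.11 to 0.26, Slfn2 of -0.21 to -0.063 and Slfn3 of -0.020 to 0.16, with Slfn3 at -0.020 without wild type replicate 1 and -0.0014 without knockout replicate 1. It gave 0.72 to 1.36 for the shared probe set. With the neutrophil covariate Slfn1 was 0.51 (SE 0.19, limma adjusted p = 0.428) and Slfn3 0.11, while Slfn2 turned to 0.15, the shared probe set to -0.42, Slfn8 to -0.0033, Clec10a to -0.18, Itgax to -0.40 and Cd27 to 0.038. Slfn8 was -0.0083 under median centring and ran from -0.041 to 0.068 with 1 array left out. The cause of these changes was not tested.

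The count of 165 higher and 71 lower genes became 270 and 110 over separate probe sets, which tests more features, and 11 and 7 with the neutrophil covariate. Lower genes numbered 113 with trend and robust variance and 110 with array weights. With 1 array left out there were 17 to 358 higher and 3 to 186 lower genes. The 21 called genes named beside Slfn4 all lost their call without wild type replicate 1 and without replicate 3, 18 without wild type replicate 2, 5 without knockout replicate 2 and 14 without knockout replicate 3, with limma adjusted p of up to 0.187 and no change of sign. Of these 21 calls, all were lost with the neutrophil covariate, 8 with the replicate block, 7 with trend and robust variance, 2 with the mean of a gene's probe sets, and 1 each under quantile normalisation and cyclic loess. The titles give replicate numbers but do not say whether same-numbered arrays were paired. Deviations of same-numbered arrays correlated at -0.082, 0.15 and -0.041, and not every array correlated best with its own number. With 3 arrays a group such correlations cannot decide whether a pairing exists. With the replicate block, Slfn4 differed by 3.87 (SE 0.42, against 0.52 without it, limma adjusted p = 0.0249), with 112 higher and 35 lower genes.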
